A study of Mus musculus with 4 samples.

Results

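The endoplasmic reticulum (ER) folding and unfolded protein response genes were compared between cultured pancreatic fibroblasts of KPC mice and of wild type mice. The 31 genes were chosen by symbol, as the chaperones, folding enzymes, stress sensors, degradation factors and translocon subunits of the pathway. Each of the 31 had exactly 1 row among the 38921 gene rows deposited, and all 31 passed the count filter for testing. Derl3 passed it through the wild type libraries alone. Messenger RNA was sequenced in 4 libraries, 2 of KPC fibroblasts and 2 of wild type fibroblasts, all from mice of mixed strain and grown in serum-containing medium. KPC commonly denotes a pancreatic cancer model that relies on a Cre driven from the Pdx1 promoter, which acts in pancreatic epithelial precursors and not by design in fibroblasts. The labels call the libraries of each group biological replicates 1 and 2 and name no allele, age, animal or separate culture, so p-values speak only of how far these 4 libraries spread.

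Secreted and membrane proteins enter the ER through the Sec61 channel and are folded there by the chaperone BiP (Hspa5) with its partners, by the lectins calnexin and calreticulin, and by disulfide isomerases. When unfolded protein builds up, the sensors IRE1 (Ern1), ATF6 and PERK (Eif2ak3) raise the folding and degradation genes through the factors XBP1, ATF6 and ATF4 and slow translation. Fibroblasts depend on this system because collagens are folded and assembled in the ER.

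The promoter of a folding gene often carries the ER stress response element, at which ATF6 and XBP1 act together with NF-Y. RefSeq promoter windows in the GRCm38.p6 build, from 250 bases before to 50 after the start, were found for 25 of the 31 genes. The element was searched on both strands as CCAAT followed after any 9 bases by CCACG, and in its second form as ATTGG followed after any 1 base by CCACG. The first form lay in 9 of the 25 genes, namely Hspa5, Hsp90b1, Dnajc3, Calr, Canx, Pdia6, Creld2, Syvn1 and Derl3, against 0.119% of all 32851 windows. The second form lay in Dnajb11 and Herpud1, against 0.0365% of all windows. The UPR element TGACGTGG was in 0 of the 25 and in 0.676% of all windows, and the amino acid response core TGATGNAA was in Herpud1 alone and in 3.97% of all windows. A gene was counted where any of its windows matched, while the shares of all windows count each window singly. A match describes the letters of the window and was not tested as a site. Only exact matches were counted, so a window described as without an element may hold a near match. The 4 windows of the most abundant genes with an element are shown because they let the motif be seen beside the levels given further on; capitals mark its fixed bases.
Calr (chr8:84846882-84847181, minus strand): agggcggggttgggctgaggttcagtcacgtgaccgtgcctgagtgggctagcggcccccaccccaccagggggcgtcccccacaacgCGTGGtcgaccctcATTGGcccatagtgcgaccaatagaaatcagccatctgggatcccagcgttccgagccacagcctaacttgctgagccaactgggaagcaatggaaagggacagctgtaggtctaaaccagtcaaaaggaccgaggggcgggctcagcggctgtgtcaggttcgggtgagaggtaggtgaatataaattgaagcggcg
Hsp90b1 (chr10:86705395-86705694, minus strand): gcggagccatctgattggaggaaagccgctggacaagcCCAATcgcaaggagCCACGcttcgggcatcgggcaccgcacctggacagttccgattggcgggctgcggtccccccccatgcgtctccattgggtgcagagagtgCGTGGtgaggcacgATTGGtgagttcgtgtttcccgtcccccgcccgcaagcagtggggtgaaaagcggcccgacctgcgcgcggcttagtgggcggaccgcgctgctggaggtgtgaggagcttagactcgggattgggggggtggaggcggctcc
Hspa5 (chr2:34771840-34772139, plus strand): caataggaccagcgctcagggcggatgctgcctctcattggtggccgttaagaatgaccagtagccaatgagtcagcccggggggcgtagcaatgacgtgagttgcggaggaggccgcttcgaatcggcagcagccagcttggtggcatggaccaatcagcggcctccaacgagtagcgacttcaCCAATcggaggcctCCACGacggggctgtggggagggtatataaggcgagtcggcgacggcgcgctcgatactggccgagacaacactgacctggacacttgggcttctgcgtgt
Pdia6 (chr12:17266339-17266638, plus strand): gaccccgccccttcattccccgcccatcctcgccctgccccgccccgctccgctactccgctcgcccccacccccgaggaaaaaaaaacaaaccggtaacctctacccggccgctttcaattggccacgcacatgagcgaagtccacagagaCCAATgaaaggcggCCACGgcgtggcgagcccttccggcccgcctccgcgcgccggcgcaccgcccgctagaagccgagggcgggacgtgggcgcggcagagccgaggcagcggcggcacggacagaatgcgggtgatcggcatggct

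In Hspa5 the element began at base 186 of the window and ran in the gene's direction. Hsp90b1 held a pair, at base 39 in the gene's direction and at base 144 on the opposite strand. In Calr it lay on the opposite strand from base 89, and in Pdia6 it began at base 153.

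Counts per library summed to 57926327 and 68312367 in KPC 1 and 2, against 53232634 and 22302141 in wild type 1 and 2. Levels are given as CPM, counts scaled to the library total, after TMM scaling, a correction for library composition. The libraries held fibroblast transcripts in bulk, with 10 fibroblast markers summing to 14330 and 16270 CPM in KPC and to 14660 and 15620 CPM in wild type. Collagen I (Col1a1) and smooth muscle actin (Acta2) led that list, and none of its members was at 0. Its members did not all go the same way. Both KPC values stood above both wild type values, without overlap, in Col1a1 and Thy1, and below them in Vim and Pdgfrb. The groups overlapped in the other 6. Of all tested rows, 20.6% stood higher without overlap and 20.5% lower. Other cell types were not evenly spread. Macrophage markers (15 of 15 higher without overlap) summed to 1169 and 2373 CPM in KPC against 78.9 and 284 CPM in wild type. Epithelial markers summed to 1187 and 446.5 CPM in KPC against 32.6 and 434 CPM in wild type. Of the 11 epithelial markers tested, 3 were higher without overlap (27.3%), near the share of all tested rows. Endothelial markers, with 8 of 10 lower and 0 higher without overlap, summed to 23.1 and 35.2 CPM in KPC. Their sums were 788 CPM in wild type 1 and 49.6 CPM in wild type 2. Schwann cell markers (5 of 6 tested lower in both KPC libraries) summed to 3.3 and 3.42 CPM in KPC, against 29.96 CPM in wild type 1 and 6.39 CPM in wild type 2. Endocrine markers, with 6 of 8 tested lower and 0 higher without overlap, summed to 1.92 and 2.65 CPM in KPC. Their sums were 4.32 CPM in wild type 1 and 963 CPM in wild type 2. Of 15 acinar markers, Ptf1a was at 0 in every library, and their sum was at most 10.2 CPM. Of 11 plasma and B cell markers 3 could be tested, and nearly all of their summed 305 and 174.5 CPM in KPC, against 52.6 and 101 CPM in wild type, was syndecan 1 (Sdc1), which epithelia also express. In bulk libraries, fewer cells of a type and less RNA per cell cannot be told apart. Wild type 2 correlated with wild type 1 at 0.949 across genes on log2 CPM, and with KPC 1 and KPC 2 at 0.958 and 0.969.

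Across the 31 genes, KPC and wild type fibroblasts lay close together. The median log2 fold change of KPC over wild type was 0.02, beside -0.01 over all 23046 tested rows, and the values ran from -1.06 (Derl3) to 0.46 (Sdf2l1). By edgeR's quasi-likelihood test with Benjamini-Hochberg adjustment over all tested rows, 0 of the 31 were called at an adjusted p of 0.05, where 0% of all tested rows were. Their adjusted p ran from 0.575 to 0.999. At an unadjusted p under 0.05, 0 of the 31 were higher and 1 was lower (Eif2ak3), beside 4.73% of all tested rows higher and 3.94% lower. DESeq2 called 0 of the 31, beside 1.44% of all rows higher and 1.28% lower, and limma voom called 0 of the 31, beside 0% of all rows. Both put the unadjusted p of Eif2ak3 alone under 0.05.

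Most fold changes were small. The log2 fold change was within 0.3 of 0 in 27 of the 31 genes (87.1%), where 55.9% of all tested rows were, and 66.0% of the 13239 rows with a mean of at least 5 CPM. It was 0.5 or more from 0 in 2 genes, Eif2ak3 and Derl3, where 26% of all tested rows were. The 95% interval of the log2 fold change lay inside -1 to 1 in 28 genes, and Sdf2l1, Eif2ak3 and Derl3 were the others. Both KPC values stood above both wild type values in 5 genes (Hspa5, Hspa13, Dnajb11, Sdf2l1 and Xbp1), where 20.6% of all tested rows did, and below them in 2 (Eif2ak3 and Derl3), where 20.5% did. The shares, 16.1% and 6.45% of the 31, were below those of all tested rows. Derl3 passed the count filter through wild type alone, so its place among the lower genes carries no weight. With upper quartile factors the counts were 2 and 5. With 1 library left out, overlap is less easily met, and the counts were 17 and 6 without KPC 1 and 10 and 11 without KPC 2. They were 7 and 6 without wild type 1, and 14 and 5 without wild type 2. Shares of all tested rows were not computed under these settings, so the counts cannot be read against 20.6% and 20.5%.

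**Figure D1:**
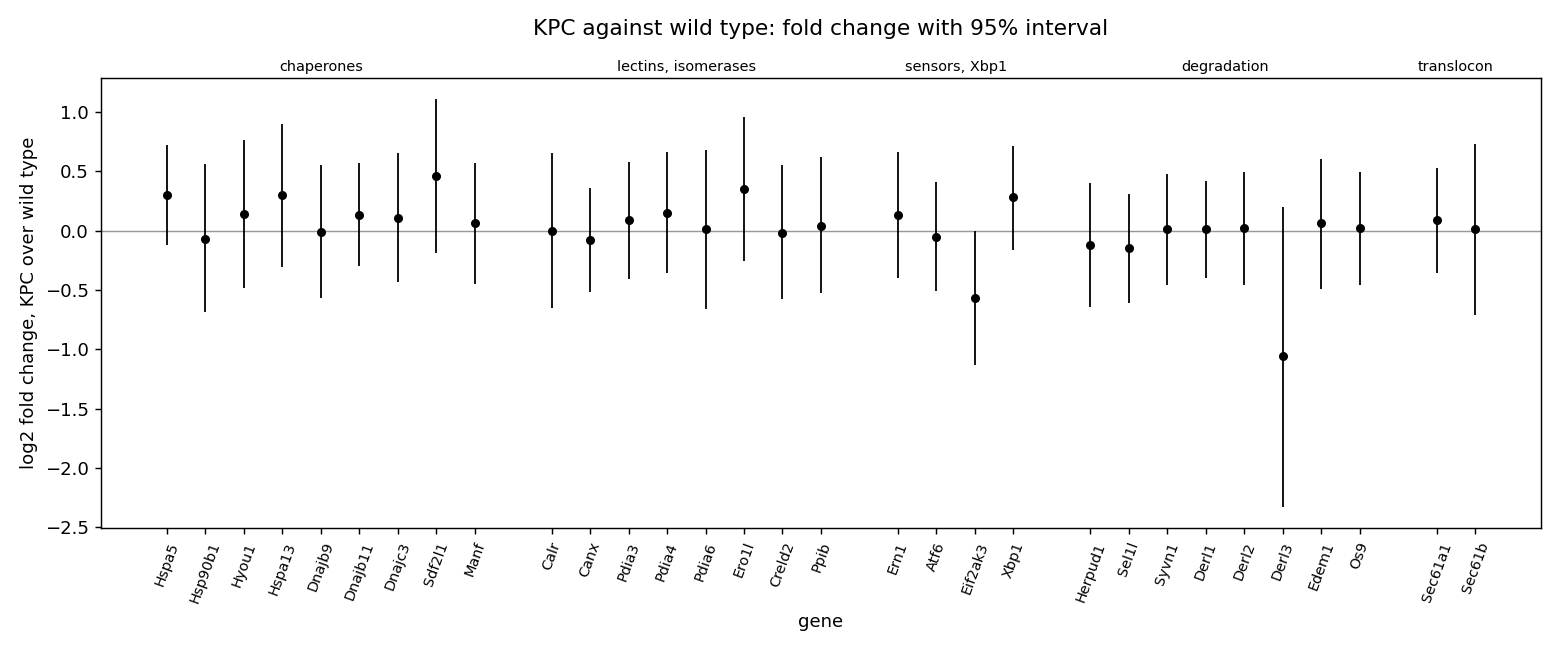
Log2 fold change of KPC over wild type (y axis) for each of the 31 genes (x axis), ordered by role. Points are edgeR estimates and bars are 95% intervals; nearly all points lie within 0.3 of 0, Derl3 is lowest at -1.06 and Sdf2l1 highest at 0.46.

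Among the lumenal chaperones, BiP itself separated the groups by a small margin. Hspa5 (chromosome 2, 34771971 to 34776531 in mm10) had 749.9 and 775 CPM in KPC 1 and 2, against 638 and 602 CPM in wild type 1 and 2. Both KPC libraries were above both wild type libraries. The log2 fold change was 0.30 ± 0.16 (SE, 95% interval -0.12 to 0.72), and the adjusted p in edgeR was 0.65, so it did not pass. Without each library in turn the log2 fold change ran from 0.26 to 0.34. The macrophage markers given above also stood higher in KPC, and their part in this difference was not tested.

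Sdf2l1, a partner of BiP complexes that delays aggregation, had 16.8 and 24.1 CPM in KPC, against 13.8 and 16.1 CPM in wild type. The groups did not overlap, but KPC 1 stood within 1 CPM of wild type 2. Its log2 fold change was 0.46 ± 0.25 (SE, 95% interval -0.19 to 1.11, adjusted p = 0.655 in edgeR), and it was 0.17 without KPC 2. Hspa13, a divergent Hsp70-type ATPase, had 25.8 and 18.3 CPM in KPC, against 18.3 and 17.6 CPM in wild type, so that KPC 1 alone stood apart. Its log2 fold change of 0.30 was 0.04 without KPC 1. Dnajb11, a J-domain partner that brings BiP to its clients, had 101 and 107 CPM in KPC, against 89.9 and 101 CPM in wild type. KPC 1 and wild type 2 were nearly level there, and the interval's 32.5% share of exon bases from the antisense gene Gm30505 makes the row uncertain, since no strand is stated for the counting.

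The remaining chaperones overlapped between groups. Hsp90b1 (Grp94), the ER form of Hsp90, had 633 and 927.5 CPM in KPC, against 827 and 805 CPM in wild type. KPC 1 was the lowest and KPC 2 the highest of the 4 libraries, so the log2 fold change of -0.07 hid a spread between the KPC libraries of 0.55 on the log2 scale. Other genes hold 15.2% of the exon bases in its interval, among them the unprocessed pseudogene 1810014B01Rik. Hyou1 (Grp170), a large Hsp70 relative that exchanges BiP's nucleotide, showed the same shape, with 100.2 and 146 CPM in KPC against 108 and 115 CPM in wild type. Dnajc3 (P58IPK), a co-chaperone, had 70.7 and 89.8 CPM in KPC against 68.5 and 80.7 CPM in wild type. Dnajb9 (ERdj4), which holds IRE1 in check through BiP, had 11.2 and 9.21 CPM in KPC against 10.6 and 9.93 CPM in wild type. Manf, a stress-induced ER protein, had 126 and 162 CPM in KPC against 137 and 139 CPM in wild type, but 80.0% of the exon bases in its interval belong to other genes, chiefly Rbm15b and Dcaf1, so this row does not measure Manf alone. Over the 9 chaperones the median log2 fold change was 0.13, with 0 called. This median ran from 0.05 without wild type 1 to 0.24 without KPC 1. The log2 fold change was positive in 7 of the 9, beside 48.8% of all tested rows.

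The lectin chaperones and isomerases had a median log2 fold change of 0.03 over 8 genes. The groups overlapped in all 8, beside 58.9% of all tested rows. The median ran from -0.09 without KPC 2 to 0.21 without wild type 2. Calreticulin (Calr) had 673 and 927 CPM in KPC, against 694 and 904.5 CPM in wild type. A low and a high library in each group gave nearly equal means of 799.8 and 799.3 CPM in KPC and wild type, and the 95% interval of the log2 fold change was -0.65 to 0.65. Its membrane-bound relative calnexin (Canx) had 211 and 232 CPM in KPC, against 246 and 223 CPM in wild type. Pdia3 (ERp57), the disulfide isomerase that works with both lectins, had 741 and 862 CPM in KPC, against 691 and 819 CPM in wild type. Each group again held a lower and a higher library.

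Pdia6 (P5), a disulfide isomerase that binds BiP, had 253 and 387 CPM in KPC, against 299 and 337 CPM in wild type, so that both wild type libraries lay between the KPC libraries. Pdia4 (ERp72), another isomerase, had 83.8 and 104 CPM in KPC against 79.1 and 90.5 CPM in wild type. Creld2, a stress-induced thiol-disulfide protein, had 39.6 and 53.3 CPM in KPC against 44.4 and 49.6 CPM in wild type. KPC 2 was the highest library for these 3 genes. Ppib (cyclophilin B), the prolyl isomerase of collagen folding, had 175 and 193 CPM in KPC against 151 and 207 CPM in wild type, and 16% of the exon bases in its interval belong to another gene, Snx22. Ero1l, the oxidase that recharges disulfide isomerases, had 78.1 and 57.0 CPM in KPC against 47.9 and 58.0 CPM in wild type. Here KPC 1 alone stood above the other 3 libraries, and the log2 fold change of 0.35 ± 0.23 (SE) was 0.11 without it.

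**Figure D2:**
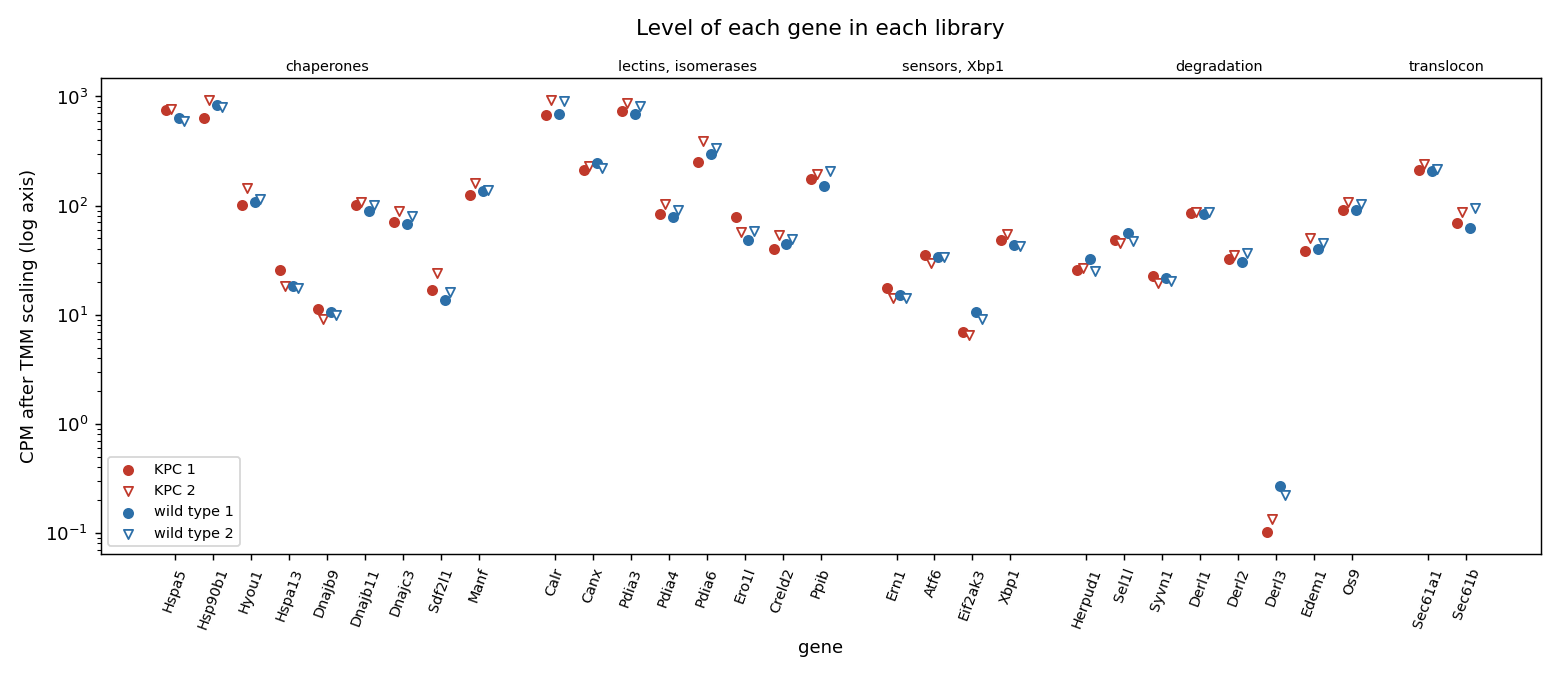
CPM after TMM scaling (y axis, log scale) of each gene (x axis, ordered by role) in each library, with KPC in red and wild type in blue, and filled circles for replicate 1 and open triangles for replicate 2. The 4 points of most genes overlap, Eif2ak3 and Derl3 have both KPC points below both wild type points, and Derl3 lies far below the other 30 genes at 0.102 to 0.266 CPM.

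The sensors did not move together. Eif2ak3, the gene of the eIF2alpha kinase PERK (chromosome 6, 70844516 to 70905245 in mm10), had 6.97 and 6.47 CPM in KPC, against 10.7 and 9.21 CPM in wild type. Both KPC libraries were below both wild type libraries, by more than the gap within either group. The log2 fold change was -0.57 ± 0.22 (SE), with an unadjusted p of 0.0496 and an adjusted p of 0.575 in edgeR, so it did not pass. It ran from -0.67 to -0.45 when each library was left out in turn. The antisense-strand gene Gm43292 and a small nucleolar RNA gene hold 25.8% of the exon bases in the interval, and their reads cannot be told apart from those of Eif2ak3.

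The genes of the other sensors overlapped between groups. Ern1, which encodes the IRE1 kinase and ribonuclease that splices Xbp1 RNA, had 17.7 and 14.3 CPM in KPC, against 15.2 and 14.1 CPM in wild type, and KPC 1 alone stood apart. Atf6, a membrane-held transcription factor released by cleavage, had 35.3 and 29.99 CPM in KPC against 34.1 and 33.6 CPM in wild type. Xbp1, the factor made active by IRE1 splicing, had 48.8 and 54.7 CPM in KPC, against 43.1 and 42.3 CPM in wild type, with both KPC libraries higher. Its log2 fold change was 0.28 ± 0.17 (SE, 95% interval -0.16 to 0.71, adjusted p = 0.682 in edgeR), and it ran from 0.19 to 0.36 when each library was left out in turn. Gene counts do not tell spliced from unspliced Xbp1.

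The degradation genes were level between the groups apart from Derl3. Of the 8, 7 had a log2 fold change between -0.15 and 0.06, and the median was 0.01. Derl1, a channel component for export of misfolded proteins, had 86.0 and 86.8 CPM in KPC, against 84.1 and 87.0 CPM in wild type, the 4 libraries lying almost level. Its log2 fold change was 0.01 with a 95% interval of -0.40 to 0.42. Syvn1 (Hrd1), the ubiquitin ligase at the centre of the export complex, had 22.7 and 19.6 CPM in KPC against 21.5 and 20.5 CPM in wild type. Its adaptor Sel1l had 48.2 and 45.3 CPM in KPC against 56.0 and 47.7 CPM in wild type. In Sel1l, wild type 1 was the highest library and the other 3 lay close together.

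The lectin Os9, which hands glycoproteins to that complex, had 91.1 and 107 CPM in KPC against 91.9 and 104 CPM in wild type. Edem1, which marks misfolded glycoproteins for export, had 38.7 and 50.2 CPM in KPC against 39.9 and 45.6 CPM in wild type. Derl2 had 32.7 and 35.0 CPM in KPC against 30.6 and 36.4 CPM in wild type. In these 3 genes replicate 2 was above replicate 1 in both groups. Herpud1, a stress-induced scaffold of the export complex, had 25.8 and 27.0 CPM in KPC against 32.1 and 25.1 CPM in wild type, where wild type 1 alone was higher. Derl3, the derlin of professional secretory cells, had 6 and 9 counts in KPC, against 14 and 5 counts in wild type. That is 0.102 and 0.133 CPM in KPC (exact 95% Poisson intervals 0.0374 to 0.222 and 0.0607 to 0.252) against 0.266 and 0.224 CPM in wild type, where the limits were 0.146 to 0.447 and 0.0726 to 0.522. The intervals of all 4 libraries overlap. Derl3 passed the count filter only through the wild type libraries, so its lower standing in KPC is not separate from that filter. The log2 fold change was -1.06 ± 0.48 (SE), and a difference was not detectable at this depth, where intervals cover counting error only.

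Both translocon genes overlapped between groups, as did 58.9% of all tested rows. Their median log2 fold change was 0.05 and ran from -0.11 without wild type 1 to 0.24 without wild type 2. Sec61a1, the channel subunit, had 210.1 and 241 CPM in KPC against 206 and 218 CPM in wild type, a log2 fold change of 0.09 ± 0.17 (SE). The small subunit gene Sec61b had 69.5 and 88.1 CPM in KPC against 61.8 and 94.6 CPM in wild type, where the spread between the wild type libraries, 0.61 on the log2 scale, was the largest between wild type libraries among the 31 genes.

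Libraries of the same group often differed by more than the group means did. The larger of 2 gaps between single libraries tends to exceed a difference of means even without a group effect, so the share is given beside that of all tested rows. In 27 of the 31 genes (87.1%), the larger of the gaps within KPC and within wild type was bigger than the log2 fold change, where this held in 73.0% of all tested rows. KPC 2 was the highest of the 4 libraries for 16 genes (51.6%), beside 19.0% of all tested rows, and for 12 of the 17 chaperones, lectins and isomerases. KPC 2 stood above KPC 1 in 14 of those 17, with a median difference of 0.31 on the log2 scale, beside 50.2% of all tested rows. Wild type 2 stood above wild type 1 in 12 of the 17, with a median difference of 0.16, beside 11161 of the 23046 tested rows. A higher replicate 2 was therefore not limited to KPC. Among the sensor genes and Xbp1, KPC 2 stood above KPC 1 in 1 of 4, namely Xbp1. The largest gaps between the KPC libraries on the log2 scale were 0.61 for Pdia6, 0.55 for Hsp90b1, 0.54 for Hyou1 and 0.52 for Sdf2l1, all in favour of KPC 2. In the other direction, Hspa13, Ero1l and Ern1 were higher in KPC 1, with KPC 2 over KPC 1 at -0.50, -0.46 and -0.31. These libraries also differed in cell type markers. Epithelial markers summed to 446.5 CPM in KPC 2 and 1187 CPM in KPC 1, and macrophage markers to 2373 and 1169 CPM. Of 10 fibroblast markers, 9 were higher in KPC 2 than in KPC 1, with a median log2 difference of 0.52. The part of these cell types in the gap was not tested.

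Within KPC, the genes with an ER stress response element followed the same split. Of the 11, 10 were higher in KPC 2 than in KPC 1 (all but Syvn1), with a median log2 difference of 0.35. Of the 14 with a promoter window and no exact match, 9 were, with a median of 0.15, beside 50.2% of all tested rows. The wild type pair did not show this split: wild type 2 was above wild type 1 in 5 of the 11 and in 9 of the 14. The 10 include Derl3, at 6 and 9 counts in KPC. Most of the 11 are chaperones, lectins or isomerases, so this contrast is not separate from role. Between KPC and wild type, 2 of the 11 were higher without overlap (Hspa5 and Dnajb11) and 1 lower (Derl3), with a median log2 fold change of 0.00. Among the 14, 2 were higher and 1 lower, with a median of 0.05. Over all tested rows 20.6% were higher and 20.5% lower without overlap.

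**Figure D3:**
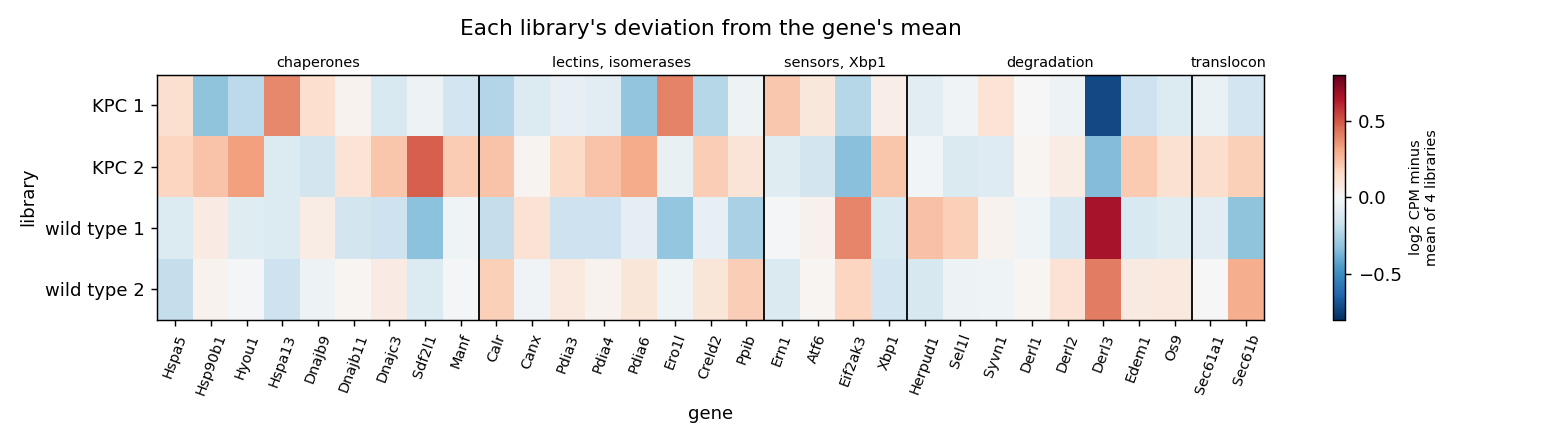
Difference of each library's log2 CPM from the gene's mean over the 4 libraries (colour, red above and blue below), with genes along the x axis by role and libraries down the y axis. The KPC 2 row is red over 14 of the 17 chaperones, lectins and isomerases relative to the KPC 1 row above it, and the degradation columns other than Derl3 are pale.

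Levels between genes were compared per kilobase of annotated exon in the interval (GENCODE M21, all transcripts joined), averaged over the 4 libraries. Calr was highest at 278 CPM per kilobase, followed by Pdia3 at 248, Hspa5 at 215 and Hsp90b1 at 198. The ranges of Calr (234 and 322 in KPC, 241 and 314 in wild type) and Pdia3 (236 and 275 in KPC, 220.3 and 261 in wild type) overlapped, as did those of Pdia3 and Hspa5 (234 and 241 in KPC, 199 and 187 in wild type) and of Hspa5 and Hsp90b1 (157 and 230.1 in KPC, 205 and 199.7 in wild type), so the order of neighbours is not separated from the spread. The 3 sensor genes lay near the bottom, with Atf6 at 3.6, Ern1 at 1.87 and Eif2ak3 at 1.38 CPM per kilobase. Hspa13 lay between Atf6 and Ern1 at 3.39, and Derl3 was lowest at 0.0909. Syvn1 and Derl2, at 4.34 and 4.18, lay just above Atf6. Reads in introns also enter these counts, as in Os9, where 5504 and 5772 bases were covered in KPC and 5598 and 4279 in wild type against 2629 annotated exon bases. The per-length values are therefore approximate.

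A further 86 genes of the pathway, in 5 lists, gave the surroundings of the 31, and 85 of them were tested. By edgeR 0 of the 85 were called at an adjusted p of 0.05. At an unadjusted p under 0.05, 1 was higher (Ppp1r15a) and 1 lower (Ddit3), fewer than the 4.73% and 3.94% of all tested rows. DESeq2 and limma voom called 0 of the 85 as well, with 1 higher and 2 lower and with 2 higher and 1 lower at an unadjusted p under 0.05. The log2 fold change was within 0.3 of 0 in 66 of the 85 (77.6%), beside 55.9% of all tested rows. It was so in 17 of 20 translocation, signal peptidase and glycosylation genes, in 15 of 17 other degradation genes and in 7 of the 14 genes of the PERK-ATF4 arm, and the lists were not tested against each other.

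The PERK-ATF4 arm held genes of opposite sign. Atf4, the factor translated when eIF2alpha is phosphorylated, had 228.5 and 261 CPM in KPC, against 183 and 193 CPM in wild type. Ppp1r15a (GADD34), the phosphatase subunit that ends eIF2alpha phosphorylation, had 108 and 73.1 CPM in KPC against 46.1 and 57.5 CPM in wild type. Both genes stood higher in both KPC libraries. Ddit3 (CHOP), a transcription factor of the late stress response, had 45.2 and 48.2 CPM in KPC, against 71.9 and 64.1 CPM in wild type, with both KPC libraries lower. Their log2 fold changes were 0.38 ± 0.17 for Atf4, 0.81 ± 0.26 for Ppp1r15a and -0.54 ± 0.17 for Ddit3 (SE), with adjusted p of 0.614, 0.541 and 0.537 in edgeR, so none passed. Over the 14 genes, 5 were higher and 3 lower without overlap, beside the 20.6% and 20.5% of all tested rows. Macrophage markers also stood higher in KPC, and their part was not tested.

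**Figure D4:**
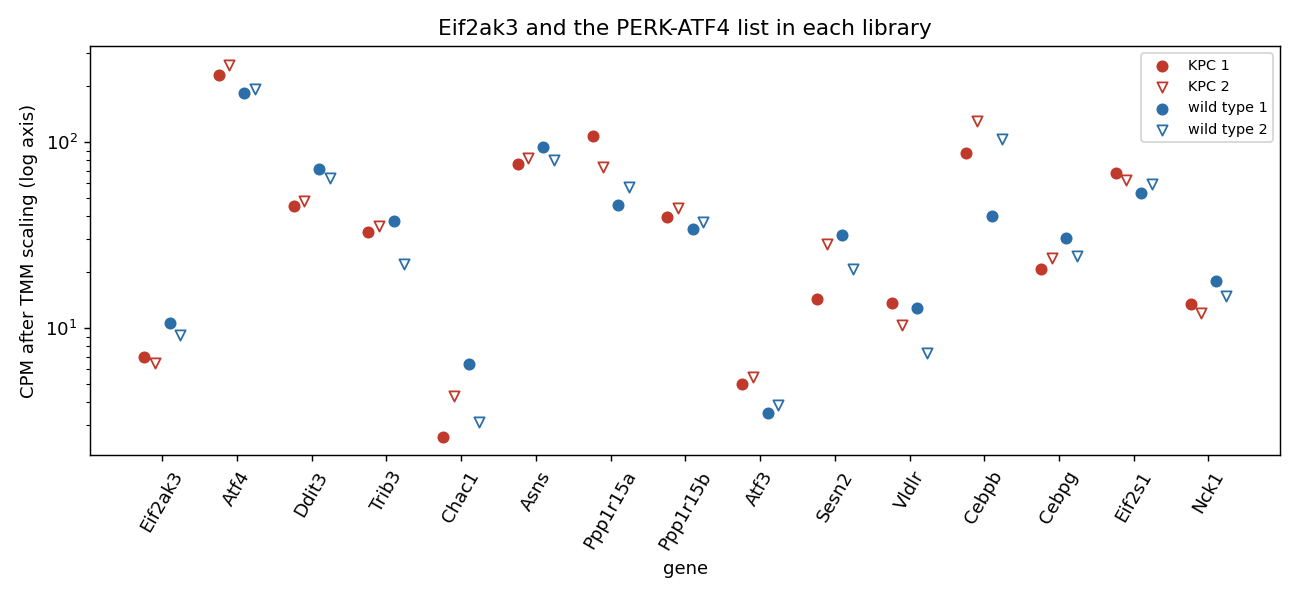
CPM after TMM scaling (y axis, log scale) of Eif2ak3 and the 14 genes of the PERK-ATF4 list (x axis) in KPC (red) and wild type (blue), with filled circles for replicate 1 and open triangles for replicate 2. Eif2ak3 and Ddit3 have both KPC points below both wild type points, and Atf4 and Ppp1r15a have both above.

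Outside that arm, the genes of smallest p in each list also missed the threshold. Among other folding factors, 9 of 21 were lower (42.9%) and 3 higher (14.3%) without overlap, beside 20.5% and 20.6% of all tested rows. Of these, Dnajc10 (ERdj5), a reductase for degradation, had 64.0 and 66.0 CPM in KPC against 139.7 and 76.9 CPM in wild type, and much of its difference lay in wild type 1. Pdia5 had 43.4 and 40.7 CPM in KPC against 70.6 and 50.0 CPM in wild type, and Fkbp14, a prolyl isomerase for collagen, 27.5 and 35.0 against 40.1 and 40.9 CPM. Among translocation genes, 6 of 20 were higher and 0 lower without overlap, beside 20.6% and 20.5% of all tested rows. The smallest p belonged to the translocon-associated protein genes Ssr1 (200.4 and 206 CPM in KPC, 140.2 and 161 CPM in wild type) and Ssr2 (94.8 and 110.5 CPM in KPC, 63.4 and 89.1 CPM in wild type). The signal peptidase gene Sec11c had 31.5 and 23.5 CPM in KPC against 18.1 and 23.5 CPM in wild type. Ssr1 had the smallest adjusted p of these, 0.581 in edgeR.

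In the other degradation list, Selk had 59.97 and 54.6 CPM in KPC against 40.9 and 49.2 CPM in wild type. Erlec1, a lectin of the export pathway, had 20.96 and 22.4 CPM in KPC against 27.3 and 25.98 CPM in wild type, and Edem3 had 14.1 and 12.2 against 17.8 and 14.4 CPM. Selk stood higher in both KPC libraries, and Erlec1 and Edem3 lower. Among the regulators, Serp1, which stabilizes membrane proteins under stress, had 128 and 132 CPM in KPC against 103 and 114 CPM in wild type. Tmbim6, an inhibitor of ER stress death, had 322 and 349.5 CPM in KPC against 300.1 and 292 CPM in wild type, and Wfs1, an ER membrane protein, 40.2 and 25.3 against 20.6 and 26.8 CPM. Wfs1 overlapped between groups, with KPC 1 alone standing apart. Among these 6 genes the smallest adjusted p by edgeR was 0.648.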

How the data were processed

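Single-read libraries were made from poly-A RNA, per the labels' protocols. Tools in the submitters' processing notes are TopHat2 2.0.3, SAMtools 0.1.18, bedtools and FastQC 0.10.1, with the mm10/GRCm38 build and no step assigned; strand use and the handling of reads with several matches are not given in the sources used here. The authors deposited, per library, a raw read count for each gene interval, with the covered bases and interval length. Whole numbers with a different total in each library, from 22302141 to 68312367, mark them as counts.

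The 4 tables were joined and tested with edgeR 4.0.16 in R 4.3.3: filterByExpr (minimum count 10), TMM factors (0.988 to 1.02) and its quasi-likelihood test (KPC over wild type, two-sided), with Benjamini-Hochberg adjustment across 23046 rows. SE is the ratio of the unshrunk log2 fold change to the root of the F statistic, and 95% intervals use the fit's 2 residual plus 2.76 prior degrees of freedom. An exact permutation test of 2 libraries against 2 cannot reach 0.05 and was not used. Between replicates, chi-square over its degrees of freedom was 75.2 in KPC and 142 in wild type, so no library repeated another. Overlaps with other genes were read from GENCODE M21, promoters from RefSeq. Alternatives were other normalizations, count filters, DESeq2 1.42.0, limma 3.58.1 (voom), a replicate block, rows without processed pseudogenes and each library left out.

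All 31 genes are named. Of each other list, up to 3 tested genes of smallest p with a mean of at least 5 CPM are named. Genes and lists were chosen with earlier results of these data known. Figures were drawn with matplotlib 3.10.9.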

Additional observations from a re-analysis of the deposited data

How the results depend on the processing

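No alternative called any of the 31 genes, and the smallest adjusted p was 0.291 (Eif2ak3 without wild type 2). Over all rows, DESeq2 called 333 higher and 294 lower against 0 and 0 in edgeR, and leaving out each library in turn gave 0 to 429 higher and 0 to 406 lower, the highest counts coming without wild type 2. Genes standing higher without overlap numbered 2 with upper quartile factors and 3 with at least 1 CPM in 2 libraries. They numbered 7 to 17 when a library was left out, which eases the criterion. Those standing lower numbered 5, 1 and 5 to 11. Derl3 was not tested under the 1 CPM filter, so it left the lower count there. Shares of all tested rows were not computed under these settings, so the counts do not set the 31 genes against other rows. Without each library in turn, the median log2 fold change ran from -0.04 to 0.18 over the 31 genes (0.18 without KPC 1). It ran from 0.05 to 0.24 over the chaperones and from -0.09 to 0.21 over the lectins and isomerases. Over the translocon it ran from -0.11 to 0.24, and over the sensors with Xbp1 from -0.10 to 0.12. Over the degradation genes it ran from -0.11 to 0.01, where upper quartile factors gave -0.06. The cause was not tested.

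Signs of genes near 0 turned. With upper quartile factors, which moved the median of all rows to -0.08, the log2 fold change was -0.00 for Manf, -0.06 for Calr, -0.05 for Pdia6, -0.02 for Ppib, -0.06 for Syvn1, -0.05 for Derl1, -0.05 for Derl2, -0.01 for Edem1, -0.05 for Os9 and -0.05 for Sec61b. Calr was -0.00 with RLE factors and with DESeq2 and -0.01 with the 1 CPM filter, which gave -0.00 for Pdia6 and Syvn1. Dnajb9 was 0.01 with no composition factors and without pseudogene rows, and 0.02 with no filter, where Creld2 was 0.01. With voom Pdia6 was -0.02. With each library left out, values crossed 0 in Hsp90b1 (-0.37 to 0.19), Hyou1 (-0.16 to 0.39), Dnajb9 (-0.15 to 0.12), Dnajc3 (-0.08 to 0.27), Manf (-0.13 to 0.24), Calr (-0.25 to 0.22), Pdia3 (-0.03 to 0.22), Pdia4 (-0.02 to 0.30), Pdia6 (-0.33 to 0.29), Creld2 (-0.25 to 0.19), Ppib (-0.16 to 0.29), Ern1 (-0.03 to 0.27), Atf6 (-0.17 to 0.06), Herpud1 (-0.28 to 0.07), Syvn1 (-0.09 to 0.11), Derl1 (-0.01 to 0.04), Derl2 (-0.10 to 0.15), Edem1 (-0.15 to 0.24), Os9 (-0.11 to 0.14), Sec61a1 (-0.02 to 0.19) and Sec61b (-0.26 to 0.35).

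The labels do not say that equal replicate numbers pair libraries, and deviations of same-numbered libraries correlated at 0.136. With the replicate block, edgeR called 0 rows higher and 0 lower and 0 of the 31 genes, the median of the 31 was 0.03, and Calr was -0.01 and Pdia6 -0.02. Where a library was left out, the lone library of its group was assumed to vary like the other group. Depth limits Derl3, which had 5 counts in wild type 2, the library of lowest total.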
